A study of Homo sapiens with 2 samples.

Results

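The genes of the axon guidance families were examined in PC9 cells that express TAZ4SA: the Eph receptors and their ephrin ligands, the semaphorins with their plexin and neuropilin receptors, the netrins with their UNC5 receptors, the Robo receptors, and the adhesion molecule gene L1CAM. Members were taken by gene name from the deposited table, which gave 55 of its 16642 genes. Of these, 52 code for guidance proteins. The other 3 matched by name and are not guidance genes, but they remain among the members counted below. UNC50 is a gene of Golgi trafficking caught by the prefix of the UNC5 receptors. UNC5CL is a relative of the intracellular part of those receptors, and EPHA1-AS1 is an antisense transcript of the EPHA1 locus. Members whose normalized counts averaged 20 or more over both libraries are called measured here. In all 48 passed: 46 guidance genes, UNC50 and EPHA1-AS1. The other 7 had between 9 and 32 reads in all.

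Guidance receptors steer growing axons, and epithelial and tumour cells use them to set cell contact, repulsion and migration. Ephrins are held on the surface of one cell and bind Eph receptor tyrosine kinases on the next, so that both cells are signalled. Semaphorins bind plexins, whose intracellular part acts on small GTPases of the Ras and Rap type, and the secreted class uses neuropilins as co-receptors. Netrins attract or repel cells through DCC-type and UNC5 receptors, Slits repel through Robo receptors, and L1CAM is an immunoglobulin-type adhesion molecule first known from neurites and found on many carcinoma cells.

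PC9 is an established human lung adenocarcinoma line with an activating EGFR deletion, and TAZ4SA is a constitutively active form of TAZ, a co-activator of transcription, in which serines that LATS kinases phosphorylate are replaced. The study compared 1 library of control PC9 cells with 1 library of PC9 cells expressing TAZ4SA. Per the labels' protocols, cells received lentivirus of the Tet-On regulator vector pLVX-Tet-On Advanced, of the response vector pLVX-TP-3F-TAZ4SA, or of both, and 50 ng/mL doxycycline was given for 24 h to induce TAZ4SA. The same text is attached to both libraries, so the vector and the doxycycline of the control are not stated on their own, and the sources used here do not say whether the lines are single clones. There are no replicates: every value below is a single measurement, each bracketed range is an exact 95% interval of counting error only, no test of the conditions was possible, and differences describe these libraries.

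Reads recovered from the deposited values of the 16642 genes summed to 29668388 (TAZ4SA) and 47684754 (control). Reads outside these genes are not included. WWTR1, the TAZ gene, had 15628 normalized counts with TAZ4SA and 4933 without, 3.17-fold higher (3.07 to 3.27). Of the markers fixed for the check of cell type, all 6 epithelial genes were measured, with summed normalized counts of 343978 and 297242. Of 7 lung alveolar markers, the surfactant gene SFTPB was the only one measured, at 21.8 against 81.0 normalized counts, 3.72-fold lower (2.14 to 6.92) on 15 and 90 reads. NAPSA had 6 and 6 reads, and the remaining genes of that list are not found by name among the 16642 genes. Neural markers, 3 of 10 in the table, summed to 109 and 117 normalized counts, and the only leukocyte marker in the table, LYZ, had 2 and 8 reads. COL1A1 was the only fibroblast marker in the table, with 490 and 413 normalized counts. Of 6 endothelial markers, 2 were in the table. The cadherin gene CDH5 was measured at 1362 and 1589 normalized counts, while VWF had 5 and 20 reads.

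Among the guidance genes, L1CAM and the semaphorin gene SEMA7A were higher in the TAZ4SA library, and EPHB6, UNC5B, SEMA4B and the neuropilin gene NRP2 were lower. At the threshold of 1.5-fold, with an interval that excluded a ratio of 1, 3 of the 48 measured members were higher (6.25%, against 4.16% of all 14074 measured genes) and 5 were lower (10.4%, against 4.44%). The third higher gene was SEMA3A and the fifth lower gene was SEMA3E, both on few reads. In bulk RNA of this kind, fewer cells that express a gene and less RNA of it per cell cannot be told apart. At 2-fold, 2 members were higher (L1CAM and SEMA3A, 4.17% of the members, against 1.90% of all genes) and 0 were lower (against 1.56%). L1CAM was included as a single named gene, not through a family name, and members were chosen with earlier results of these data known. The shares of higher members at both thresholds therefore include a gene picked on its own.

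Most of the lower members differed by less than 1.5-fold. Of the 48, 31 had a log2 ratio below 0 (64.6%, against 50.0% of all genes). In 24 the counting interval lay wholly below a ratio of 1 (50.0%, against 25.2%), in 12 wholly above (as frequent as the 24.5% of all genes), and in 12 it included 1. The median log2 ratio of the members was -0.17, with quartiles of -0.41 and 0.14, whereas all measured genes had a median of 0.00019 and quartiles of -0.16 and 0.14. At a threshold of 1.25-fold, chosen after the values were seen, 14 members were lower (29.2%, against 9.90%) and 4 higher (8.33%, against 8.12%). Narrow intervals come with many reads, so the count was also taken among genes with a mean of at least 1000 normalized counts: there 17 of 27 members had intervals below 1 (63.0%, against 31.3%) and 7 above (25.9%, against 32.0%).

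**Figure D1:**
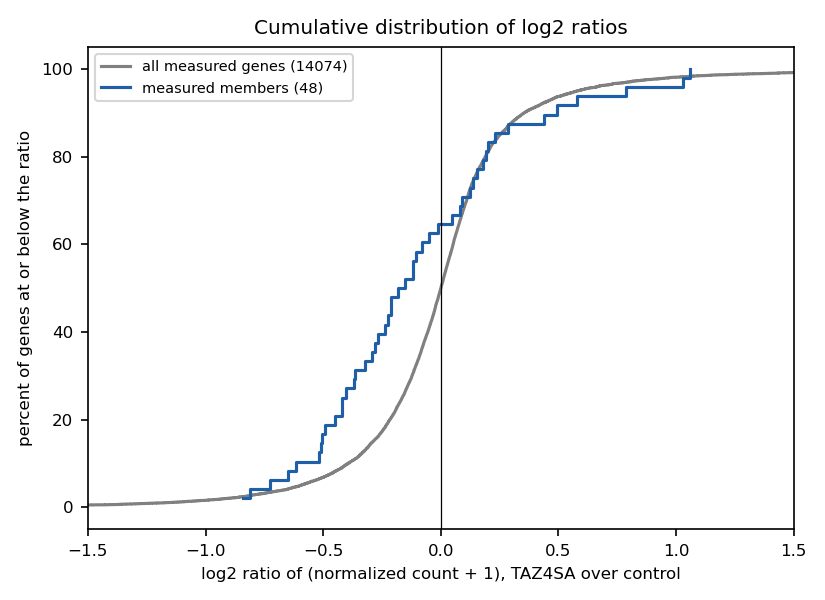
Cumulative percent of genes (vertical axis) at or below each log2 ratio of (normalized count + 1), TAZ4SA over control (horizontal axis), for the 48 measured members and all 14074 measured genes. Log2 ratios below 0 are found for 64.6% of members and 50.0% of all genes, and the members' curve starts at its lowest ratio of -0.84, below which the curve of all genes goes on; ratios beyond 1.5 in size are outside the axis.

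**Figure D2:**
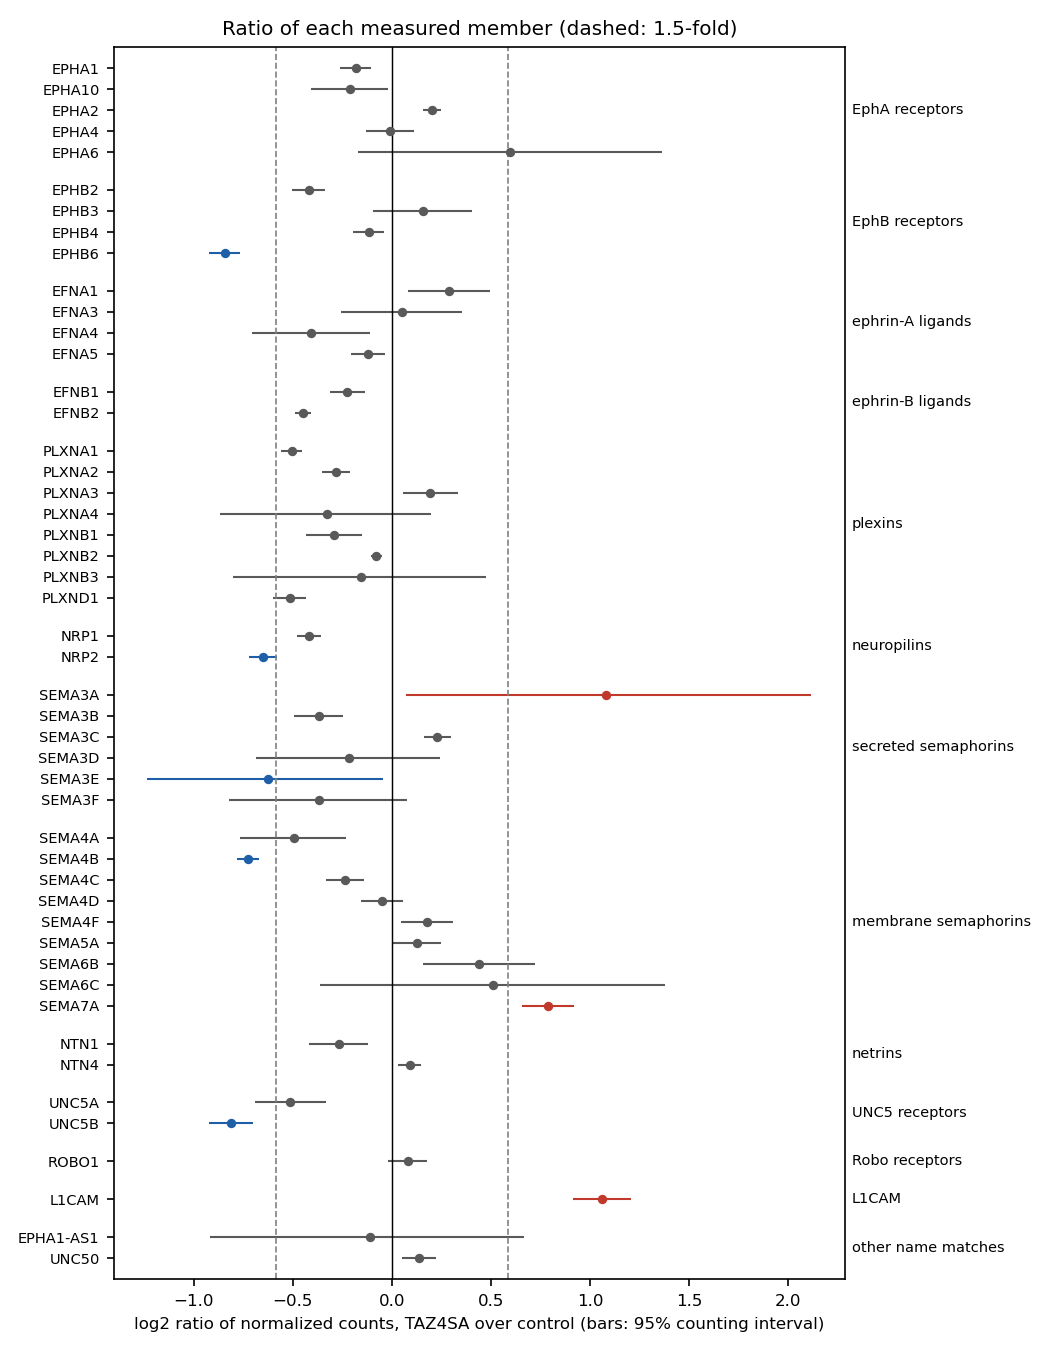
Log2 ratio of normalized counts, TAZ4SA over control (horizontal axis), for each measured member grouped by family, as 1 point per gene with its 95% counting interval. Red points are the 3 members at least 1.5-fold higher (L1CAM, SEMA7A, SEMA3A), blue points the 5 at least 1.5-fold lower (EPHB6, UNC5B, SEMA4B, NRP2, SEMA3E) and dashed lines mark 1.5-fold.

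Promoter sequence is shown for the well covered genes at least 1.5-fold higher, L1CAM and SEMA7A, for the gene with the lowest ratio, EPHB6, and for EPHA2, the most abundant Eph receptor gene, whose window holds a match to the core of the TEAD motif, TEAD factors being the DNA-binding partners of TAZ. Each line gives the 250 bases before the most upstream start site that RefSeq lists, 5′ to 3′ on the gene's strand, from the RefSeq table on GRCh38.p14, which is not the GRCh37 build named in the submitters' processing notes. Capitals mark matches to GGAATG on either strand (CATTCC on the other strand).
L1CAM (chrX:153876015-153876264, minus strand): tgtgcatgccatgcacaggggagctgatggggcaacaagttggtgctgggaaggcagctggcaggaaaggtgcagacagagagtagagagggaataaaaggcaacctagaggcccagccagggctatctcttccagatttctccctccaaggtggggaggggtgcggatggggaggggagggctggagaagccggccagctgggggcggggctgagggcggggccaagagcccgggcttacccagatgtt
SEMA7A (chr15:74433959-74434208, minus strand): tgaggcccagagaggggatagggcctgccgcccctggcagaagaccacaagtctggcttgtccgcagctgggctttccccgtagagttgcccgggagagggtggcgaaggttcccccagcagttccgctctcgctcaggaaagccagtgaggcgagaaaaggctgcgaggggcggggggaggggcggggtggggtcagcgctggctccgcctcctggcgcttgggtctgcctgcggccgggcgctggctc
EPHB6 (chr7:142862506-142862755, plus strand): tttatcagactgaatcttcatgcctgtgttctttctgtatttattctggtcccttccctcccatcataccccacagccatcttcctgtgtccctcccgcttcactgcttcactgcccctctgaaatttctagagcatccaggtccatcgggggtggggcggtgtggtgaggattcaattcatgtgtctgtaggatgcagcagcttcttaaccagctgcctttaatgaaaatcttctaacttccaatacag
EPHA2 (chr1:16156070-16156319, minus strand): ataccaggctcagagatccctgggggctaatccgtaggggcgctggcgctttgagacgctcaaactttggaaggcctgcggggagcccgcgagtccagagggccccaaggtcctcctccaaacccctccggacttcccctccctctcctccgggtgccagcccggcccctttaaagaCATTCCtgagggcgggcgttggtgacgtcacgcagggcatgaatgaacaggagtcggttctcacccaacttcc
The match in EPHA2 begins 73 bases before the start site. The L1CAM, SEMA7A and EPHB6 windows hold none. The GC content of these stretches is 62.8% for L1CAM, 70.0% for SEMA7A, 48.0% for EPHB6 and 63.2% for EPHA2.

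The search covered windows of 300 bases, from 250 before to 50 after each start site. Of the 55 members, 49 had a window in the RefSeq table, with 74 windows in all. GGAATG was found on either strand in 10 of the 74 windows (13.5%), against 14.03% of all 35116 promoter windows. These 10 windows belong to 8 genes: EPHA2, NTN4, PLXNB1, PLXNB3, ROBO3, SEMA3B, SEMA3F and SEMA4A. Among members past 1.5-fold, 0 of the 4 windows of higher genes and 0 of the 7 windows of lower genes held it; SEMA3A and UNC5B had no window. TGANTCA, the site of AP-1 factors, which reads alike on both strands and shares no match with GGAATG here, was in 0 of the 74 windows and in 7.71% of all. A match of letters is not a bound site, and a window without one says nothing of sites elsewhere.

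L1CAM (ENSG00000198910) had 1274 normalized counts in TAZ4SA cells and 610 in control cells, from 878 and 678 reads. It was 2.09-fold higher (1.89 to 2.31), the highest ratio among measured members other than SEMA3A, which had 37 reads in all. Per length its level was 83.9 normalized counts per kb of exon in the control, where ROBO1 was at 177, and 175 per kb with TAZ4SA, where ROBO1 was at 187. In the annotation used here 11.0% of the exonic bases of L1CAM also lie in exons of LCA10 or of a second overlapping gene. Reads there are not certain to come from L1CAM.

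Eph receptors are the largest family of receptor tyrosine kinases. Those measured numbered 9 of 10. Of the 9, 1 was at least 1.5-fold lower (11.1%, against 4.44% of all genes) and 0 were higher (against 4.16%). EPHA2, known from many epithelial tumours, stood at 9885 normalized counts with TAZ4SA and 8595 in the control, 1.15-fold higher (1.11 to 1.19). It made up 72.6% and 67.5% of the EphA receptor level per length. EPHA1 was 1.14-fold lower (3100 against 3519 normalized counts), and the kinase-deficient EPHA10 was 1.16-fold lower (496 against 575). EPHA4 was at 1319 and 1328 normalized counts, with a ratio of 0.993 (0.913 to 1.08) whose interval includes 1. EPHA6 had only 30 and 32 reads, a ratio of 1.51 (0.887 to 2.57).

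The EphB side was lower in sum. EPHB6, a receptor without kinase activity, had 2652 normalized counts with TAZ4SA and 4757 in the control, which is 1.79-fold lower (1.70 to 1.89). In the control library it had the highest level per length of the EphB receptors (893 per kb, against 500 for EPHB4), and in the TAZ4SA library the levels were 498 and 461. EPHB2 was 1.34-fold lower (1.26 to 1.42), at 2578 against 3450 normalized counts, and EPHB4, the receptor of EFNB2 in vessels, was 1.08-fold lower at 2965 against 3217. EPHB3 had an interval that included 1, at 328 against 294. EPHB1, below the minimum level, had 0 reads with TAZ4SA and 13 in the control, and the end of its counting interval nearest to 1 was 1.89-fold lower.

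Among the ephrins, the B-type genes EFNB1 and EFNB2, which encode transmembrane ligands, were lower by under 1.5-fold. EFNB2 was abundant at 9846 normalized counts against 13436, 1.36-fold lower (1.33 to 1.40), and EFNB1 stood at 2316 against 2707, 1.17-fold lower. In the control EFNB2 had a higher level per length than EPHA2 (2677 against 2067 normalized counts per kb). In the TAZ4SA library the order was the other way, with EPHA2 at 2377 and EFNB2 at 1962 per kb. The annotation gives 26.2% of EFNB2's exonic bases to an overlapping gene as well. The A-type genes, whose products are held by a lipid anchor, went both ways. EFNA1, a ligand of EphA2, was 1.22-fold higher (1.06 to 1.41; 484 against 397), EFNA4 was 1.33-fold lower (1.08 to 1.63; 202 against 267) and EFNA5 was 1.09-fold lower (2489 against 2705). EFNA3, which shares 44.7% of its exonic bases with an overlapping gene, was at 213 and 206 with an interval including 1. EFNA4 shares 15.0% of its exonic bases with that same overlapping gene.

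**Figure D3:**
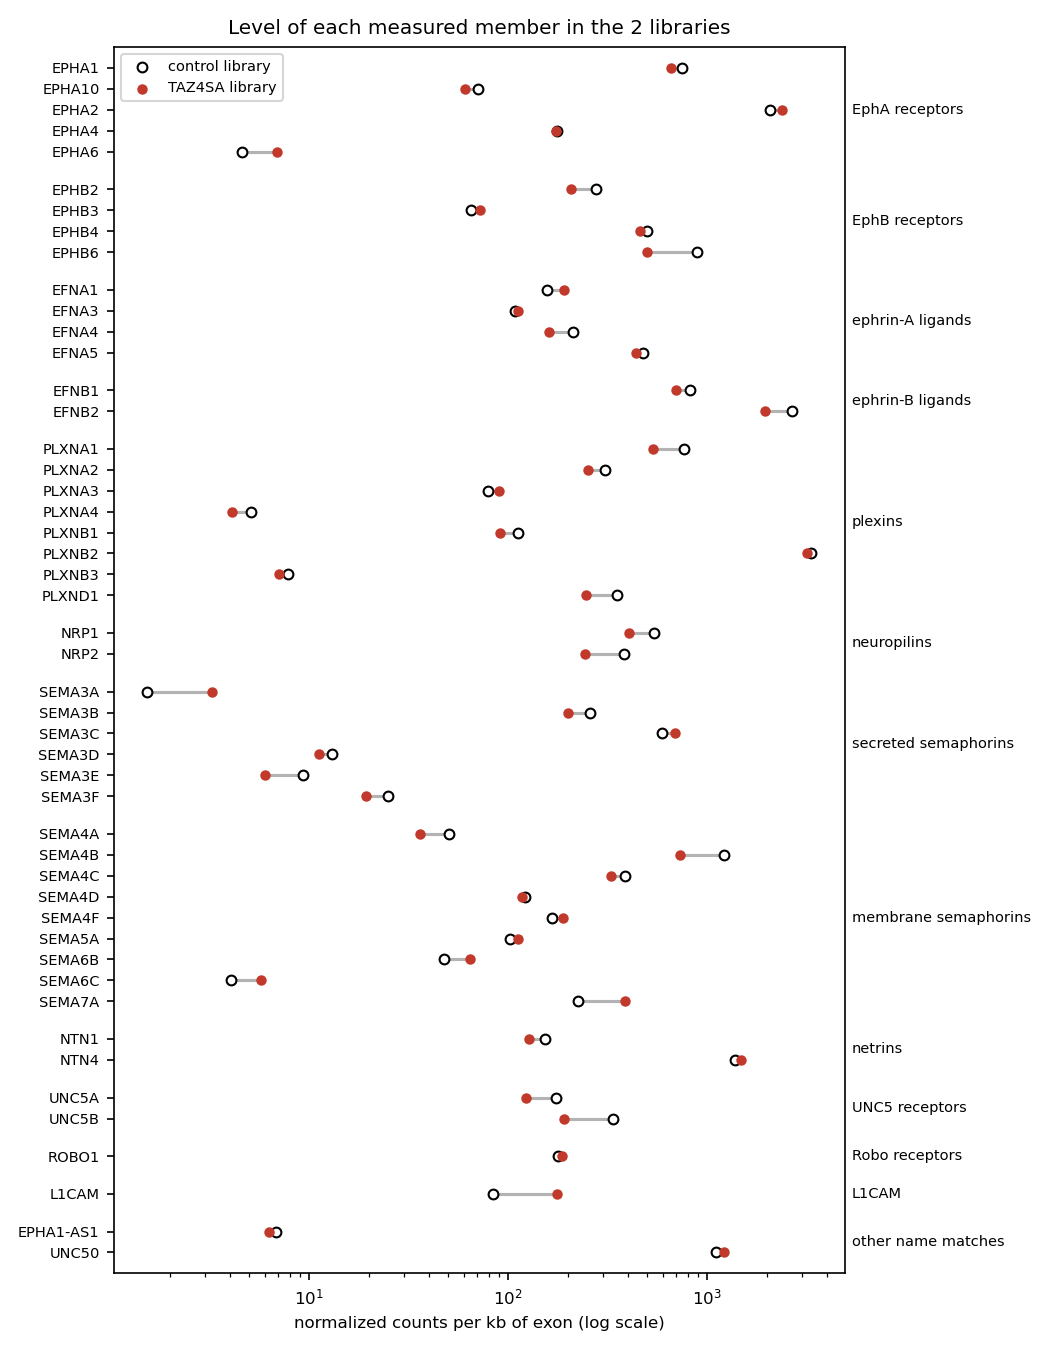
Level of each measured member in the control library (open circles) and the TAZ4SA library (red points), in normalized counts per kb of exon on a log axis, grouped by family. PLXNB2 has the highest level in both libraries (3341 per kb in the control, 3163 with TAZ4SA), and EPHA2 and EFNB2 change order between the libraries.

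Plexins, the receptors of semaphorins, had a log2 ratio below 0 in 7 of 8 genes (87.5%, against 50.0% of all genes), and in 5 the interval lay below 1 (62.5%, against 25.2%). PLXNB2 was the most abundant guidance gene per length in both libraries and differed little, with 22957 normalized counts against 24246, 1.06-fold lower (1.04 to 1.08). The larger ratios were those of PLXND1 and PLXNA1. PLXND1, a receptor that binds SEMA3E without a neuropilin, stood at 2388 against 3416 normalized counts, 1.43-fold lower (1.35 to 1.52), and PLXNA1, a partner of neuropilins, at 5876 against 8338, 1.42-fold lower (1.37 to 1.47). PLXNB1, the receptor of SEMA4D, was 1.23-fold lower and PLXNA2 1.22-fold lower. PLXNA3 was the exception, 1.14-fold higher (1.04 to 1.26) at 1056 against 924. The intervals of PLXNA4 and PLXNB3 included 1, on 46 and 93 reads and on 34 and 61 reads.

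Both neuropilin genes, which encode co-receptors for secreted semaphorins and for VEGF, were lower. NRP2 had 3394 normalized counts with TAZ4SA and 5325 in the control, 1.57-fold lower (1.495 to 1.65). NRP1 had 4669 and 6248, 1.34-fold lower (1.28 to 1.40), so that the summed reads of the pair were 1.44-fold lower (1.39 to 1.48). Of the secreted semaphorins, SEMA3C was the most abundant and was 1.17-fold higher (1.12 to 1.23; 4337 against 3703 normalized counts). SEMA3B, at 1149 against 1484, was 1.29-fold lower (1.19 to 1.41). SEMA3E had 35 reads with TAZ4SA and 87 in the control, 1.54-fold lower (1.03 to 2.35), and SEMA3A had 21 and 16 reads, which after scaling is 2.12-fold higher (1.05 to 4.34). Both of these intervals almost reach 1. Neither gene passed the rule in a single random draw that thinned control reads to the TAZ4SA total (log2 ratios of -0.25 and 0.90). The SEMA3A ratio itself stayed past 1.5-fold there. SEMA3D and SEMA3F had intervals including 1, and SEMA3G was below the minimum level.

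Membrane-bound semaphorins differed from each other in direction. SEMA4B stood at 5129 normalized counts with TAZ4SA and 8474 in the control, 1.65-fold lower (1.59 to 1.72). SEMA7A, which is lipid-anchored and also binds integrins, stood at 1466 and 849, 1.73-fold higher (1.58 to 1.89). Per length SEMA4B was 5.41 times the level of SEMA7A in the control library and 1.90 times in the TAZ4SA library, and SEMA4B's share of the membrane semaphorin level was 52.3% in the control and 37.1% with TAZ4SA. SEMA4A was 1.41-fold lower (1.17 to 1.70; 245 against 346 normalized counts) and SEMA4C 1.18-fold lower (2022 against 2383). SEMA6B was 1.36-fold higher (1.12 to 1.65) at 284 against 210, SEMA4F 1.13-fold higher and SEMA5A 1.09-fold higher, the latter with a lower bound of 1.002. SEMA4D and SEMA6C had intervals including 1, and SEMA5B was below the minimum level.

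UNC5 receptors, which repel cells from netrin and can induce apoptosis when no ligand is bound, were lower in both measured genes. UNC5B had 1307 normalized counts with TAZ4SA and 2296 in the control, 1.76-fold lower (1.63 to 1.90). UNC5A had 534 and 761, 1.43-fold lower (1.26 to 1.62). The netrin genes differed less. NTN4, whose product binds laminin in basement membranes, was 1.06-fold higher (1.02 to 1.11) at 6147 against 5778. NTN1, the classical netrin, was 1.20-fold lower (1.09 to 1.33) at 817 against 983. NTN5 was below the minimum level, with 7 and 12 reads.

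ROBO1, the Slit receptor gene with nearly all of the Robo level, was at 2037 and 1927 normalized counts, with a ratio of 1.06 (0.987 to 1.13) that includes 1. ROBO3 had 21 reads with TAZ4SA and 6 in the control, a ratio of 5.64 (2.203 to 17.1), and ROBO4, known from endothelium, had 7 and 2 reads, a ratio of 5.64 (1.07 to 55.7). Neither reached the minimum level. The name matches without a guidance role were UNC50, 1.10-fold higher (2708 against 2465), EPHA1-AS1 with 23 and 40 reads, and UNC5CL with 8 and 6 reads.

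**Figure D4:**
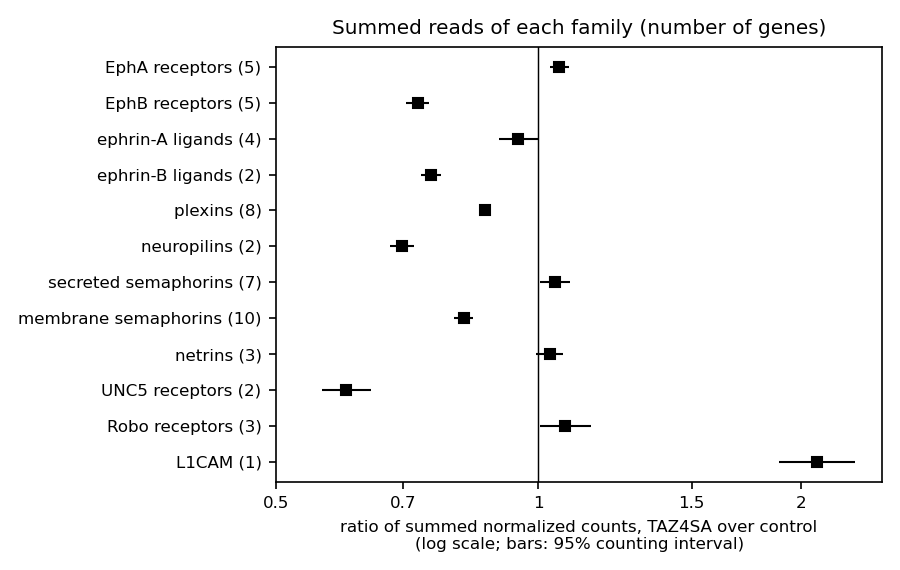
Ratio of the summed normalized counts of each family, TAZ4SA over control, on a log axis, with 95% counting intervals; the number of genes in the table is in brackets. UNC5 receptors (0.602), neuropilins (0.697), EphB receptors (0.727) and ephrin-B ligands (0.753) lie lowest, while EphA receptors (1.06), secreted semaphorins (1.04) and netrins (1.03) lie near 1 and L1CAM stands at 2.09.

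Summed over families, the reads of UNC5 receptors were 1.66-fold lower (1.56 to 1.77). Those of EphB receptors were 1.38-fold lower (1.33 to 1.42) and those of ephrin-B ligands 1.33-fold lower (1.29 to 1.36). Plexin reads were 1.15-fold lower (1.14 to 1.17), a sum in which PLXNB2 has the largest part, and membrane semaphorin reads 1.22-fold lower (1.19 to 1.25). The sums of EphA receptors and of secreted semaphorins were slightly higher, at 1.06-fold (1.03 to 1.08) and 1.04-fold (1.003 to 1.09). That of ephrin-A ligands was 1.05-fold lower (1.002 to 1.11), and the interval for netrins (0.993 to 1.07) included 1. A sum follows its most abundant genes, so SEMA3C leads the secreted semaphorins (74.2% and 65.7% of their level per length in the TAZ4SA and control libraries) and EPHA2 the EphA receptors.

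The proteins that carry the signals of these receptors were described by 4 lists of partners and effectors, 129 genes in all, of which 99 were measured. Of these, 7 were at least 1.5-fold higher (7.07%, against 4.16% of all genes) and 4 lower (4.04%, against 4.44%). Their median log2 ratio was 0.02. The members' median was -0.17, and the difference between them and the effectors was not tested.

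Eph and ephrin signalling was the list with the most measured genes, 36. Of these, 5 were higher (13.9%, against 4.16% of all genes) and 3 lower (8.33%, against 4.44%), and ABL2 and FYN among them also belong to other lists. CHN1, a GTPase-activating protein for Rac that acts behind EphA4 in the mouse, had 161 normalized counts against 45.0, a ratio of 3.58 (2.54 to 5.10). ABL2, a tyrosine kinase of the cytoskeleton, was 2.17-fold higher, and FYN, a Src-type kinase found behind several guidance receptors, was 1.90-fold higher (1.81 to 1.997) at 5242 against 2755. The Rac exchange factor genes went opposite ways: TIAM2 was 1.60-fold higher (805 against 502) and TIAM1 1.54-fold lower (2163 against 3336). NGEF, an exchange factor that binds EphA4, was 1.72-fold lower (1.53 to 1.94) at 545 against 938. The protease gene RHBDL2, whose product can cut B-type ephrins, was 2.54-fold lower on 20 and 82 reads, and MMP14, a membrane metalloprotease, was 1.55-fold higher (788 against 507).

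Among 27 measured semaphorin and plexin partners, 3 were higher (11.1%, against 4.16%) and 0 lower (against 4.44%). Their median log2 ratio was 0.06. The higher genes were FYN again, RND3 and MRAS. RND3, whose product restrains actomyosin contraction, was at 3312 against 2070 normalized counts or 1.60-fold higher (1.51 to 1.70). MRAS, a small GTPase related to R-Ras, was 1.67-fold higher (1.14 to 2.44) on 60 and 58 reads. Of 21 measured Slit and Robo effectors, 1 was higher (ABL2; 4.76%, against 4.16%) and 1 lower (4.76%, against 4.44%). The lower gene was FLRT3, an adhesion protein that binds Robo1 and UNC5 proteins, which was 2.39-fold lower (1.87 to 3.07) at 123 against 294 normalized counts. Their median was -0.02. Of 23 measured netrin and L1 partners, FYN alone was higher (4.35%, against 4.16%) and 0 were lower (against 4.44%), and the median was -0.05.

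**Figure D5:**
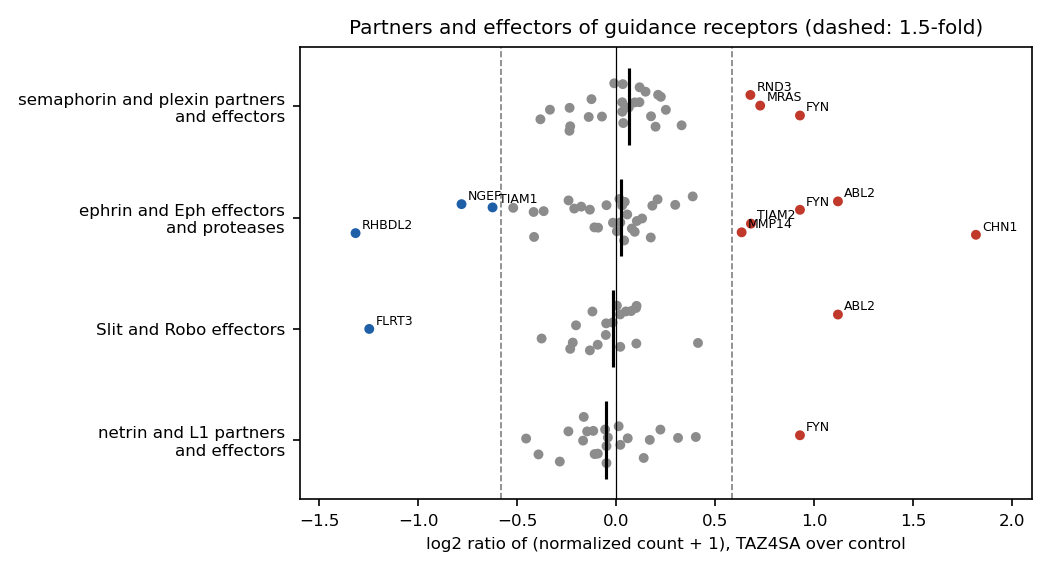
Log2 ratio of (normalized count + 1), TAZ4SA over control, for each measured gene of the 4 lists of partners and effectors, with 1 point per gene and vertical offsets for legibility only. Red points are at least 1.5-fold higher, blue at least 1.5-fold lower, dashed lines mark 1.5-fold and black bars the medians, which lie between -0.05 and 0.06; ABL2 and FYN belong to more than 1 list.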

How the data were processed

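RNA sequencing measured transcripts in 2 PC9 libraries, 1 per group. STAR, HTSeq, Trim Galore, DESeq2 and the GRCh37 build are named, with no versions, in the submitters' processing notes. The deposited values are a signal: the authors scaled the reads of each gene by 1 size factor for each library (0.689 for TAZ4SA, 1.11 for control): 100% of values in both columns were whole multiples within 0.01 reads. With 1 library per group, a count test such as edgeR's across replicates was not run on the recovered reads; the numbers of genes called come from the fold and interval rule. The authors' deposited log2 fold change differs from the columns' own log2 ratio by at most 0.000136.

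Log2 ratios were computed from log2(normalized count + 1), which understates differences of low genes; folds omit the pseudocount. Intervals are exact (Clopper-Pearson, conditional binomial) from the recovered reads and cover counting error only; reads are not independent molecules. A gene counted as higher or lower had normalized counts averaging 20 or more, a log2 ratio of at least 1.5-fold and an interval excluding 1. Every member could be named. Those past 1.5-fold, L1CAM and the most abundant of each family were given with their values. Up to 4 effectors per list were planned, but all that passed the rule are named, more than 4 for Eph and ephrin signalling. Members and lists were chosen with earlier results of these data known. The procedure was tested on simulated counts. Exonic lengths and overlaps come from GENCODE 29 (GRCh38) by gene ID, matched for all 55 members; the sources used here do not say how the authors counted shared reads. Of 73 protein-coding symbols that match the name rule, 19 are not found by name among the 16642 genes. They include EFNB3, SLIT1, SLIT2, SLIT3, ROBO2, UNC5C and PLXNC1. Tools were Python 3.11.15 with scipy 1.17.1, numpy 2.4.6, matplotlib 3.10.9 and pandas 2.3.3, R 4.3.3, and edgeR 4.0.16 and DESeq2 1.42.0 for scaling factors only. Alternatives covered scaling, pseudocount, minimum level, threshold and depth.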

Additional observations from a re-analysis of the deposited data

How the results depend on the processing

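With 4 other scalings, pseudocounts of 0.1, 0.5 and 5 and control reads thinned to the TAZ4SA total, all 480 alternative log2 ratios of 60 named genes lay within their counting intervals, and no scaling moved the all-gene median by more than 0.0043. The median log2 ratio of the members lay between -0.20 and -0.15 in every setting run for it. The number of members at least 1.5-fold higher (3) became 5 with no minimum level, by ROBO3 and ROBO4. EPHB1 then also counted as lower. The number lower (5) became 0 at 2-fold (against 1.56% of all genes) and 14 at 1.25-fold (29.2%, against 9.90%), by construction of those thresholds. That number became 3 where the interval itself had to pass 1.5-fold, also by construction. At 2-fold, the semaphorin and plexin partners and the netrin and L1 partners each had 0 higher (against 1.90% of all genes). The Eph and ephrin effectors had 2 higher (5.56%, against 1.90%) and 1 lower (2.78%, against 1.56%). Shares of all genes were not taken for the other settings that changed these counts. The 1.25-fold threshold and the removal of the 3 name matches, which left 3 higher and 5 lower, were chosen after seeing the data. SEMA3E also missed the threshold with a pseudocount of 5 (log2 ratio -0.58), which left 4 lower. Neither SEMA3E nor SEMA3A passed with control reads thinned in a single random draw (log2 ratios -0.25 and 0.90). Neither passed at a minimum mean of 100, and both settings left 2 higher and 4 lower. Depth limits members on few reads, such as these. No replicate could be left out. No paired analysis was possible because there is only 1 library in a group.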
